A study of Homo sapiens with 4 samples.

Results

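The 36 genes described here encode the enzymes and carriers of glycolysis and the products of genes that cells induce when oxygen is short. They were chosen by symbol among 37468 features measured in every library. By role they comprise 3 genes of oxygen sensing, 11 genes known as hypoxia-induced, 3 carriers of glucose or lactate, 3 enzymes that regulate glycolytic flux and 16 glycolytic enzymes. All 36 were found, and each was detected in all 4 libraries.

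Single-cell RNA was measured in MSTO-211H, an established human mesothelioma line of wild-type genotype per the labels. Drug_Radiation cells received 10 µM QTP and 4 Gy, Drug cells 10 µM QTP without irradiation, Radiation cells 4 Gy with vehicle, and Control cells vehicle without irradiation. Every culture grew in suspension without serum on low-adhesion plastic, with SM1, EGF, bFGF and heparin in the medium, and was harvested 48 h after the irradiation time. QTP is named only by that code, in a study of dopamine receptor inhibition with radiotherapy. There was 1 library per group, made from pooled cells of the same line, so the values below have no replicate check and no test was possible. A ratio between libraries compares those libraries; treatment and library cannot be told apart.

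Hypoxia-inducible factor 1 is a transcription factor whose alpha subunit, HIF1A, is made continuously and destroyed while oxygen is present, because prolyl hydroxylases such as EGLN1 mark it for degradation. When oxygen is low the subunit escapes, and it turns on genes for glucose import, glycolysis, lactate export, blood vessel growth and turnover of mitochondria. Many tumours, mesothelioma included, also run glycolysis at a high rate in the presence of oxygen. Since HIF1A is controlled mainly as a protein, its transcript is not a measure of the factor's activity.

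The libraries held 6990 Drug_Radiation, 3802 Drug, 2425 Radiation and 3183 Control cells, with 141608005, 87195885, 14331904 and 8948054 nuclear-encoded UMIs, the molecule tags that are counted. Median UMIs per cell differed widely, at 18024.5 in Drug_Radiation, 20405 in Drug, 5299 in Radiation and 2318 in Control, and so did the lowest total among the deposited barcodes, at 6244, 6427, 1592 and 1009. No barcode was shared between libraries. Of the mesenchymal markers, VIM had 3166, 2816, 4661 and 2998 counts per 1e6 nuclear-encoded UMIs (CPM) in the same order. SPARC lay between 299 and 495 CPM and CDH2 between 24.1 and 32.6 CPM, whereas COL1A1 and FN1 were low, between 6.48 and 16.7 CPM. The keratins KRT8, at 2252, 2215, 2828 and 1786 CPM, and KRT18, between 2696 and 2852 CPM, were abundant throughout. Among the other mesothelial markers CALB2 had 32.1, 49.2, 31.5 and 27.6 CPM and MSLN 14.1, 13.2, 12.2 and 8.27 CPM, while KRT7 and WT1 were between 1.12 and 5.70 CPM and UPK3B, PDPN, ITLN1, KRT5, KRT19 and HP were under 0.5 CPM in each library. Summed leukocyte markers lay between 0.279 and 0.559 CPM and endothelial markers between 0.628 and 1.10 CPM in the 4 libraries. The median share of mitochondrial UMIs was 5.17% in Drug_Radiation, 4.01% in Drug, 3.53% in Radiation and 3.18% in Control.

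The part of the promoter nearest the transcription start is shown for 4 members with large differences below. These are the members at least 2-fold higher in Radiation than in Control that have 1 window in the RefSeq table used, together with ANGPTL4, which had the largest ratio under QTP among members of at least 20 CPM in either library. NDRG1, which had the largest ratio in Radiation against Control, had no window there and is not shown. PFKP, second under QTP, had 4 windows and is not shown either. The sequences are the 250 bases upstream of the start, read 5′ to 3′ in the direction of the gene, from RefSeq (GRCh38.p14). Capitals mark ACGTG, the core that hypoxia-inducible factors bind, or its reverse complement CACGT, and in PFKL the variant core GCGTG.
CA9 chr9:35673678-35673927 (+ strand): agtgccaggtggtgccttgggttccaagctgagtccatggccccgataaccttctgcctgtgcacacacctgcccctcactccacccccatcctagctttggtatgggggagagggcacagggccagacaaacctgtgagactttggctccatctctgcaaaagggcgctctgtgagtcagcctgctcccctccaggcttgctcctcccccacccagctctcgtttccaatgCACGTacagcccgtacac
ANGPTL4 chr19:8363905-8364154 (+ strand): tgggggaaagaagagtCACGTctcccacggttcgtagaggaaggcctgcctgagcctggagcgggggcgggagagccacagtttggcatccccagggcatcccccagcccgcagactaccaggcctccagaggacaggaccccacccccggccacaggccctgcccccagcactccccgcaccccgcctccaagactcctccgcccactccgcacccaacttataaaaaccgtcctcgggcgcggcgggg
PFKL chr21:44299803-44300052 (+ strand): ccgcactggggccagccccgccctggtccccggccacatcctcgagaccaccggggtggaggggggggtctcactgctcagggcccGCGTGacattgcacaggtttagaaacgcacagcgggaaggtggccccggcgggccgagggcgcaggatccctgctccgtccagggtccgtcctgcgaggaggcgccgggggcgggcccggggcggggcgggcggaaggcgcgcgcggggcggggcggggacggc
PKM chr15:72231191-72231440 (- strand): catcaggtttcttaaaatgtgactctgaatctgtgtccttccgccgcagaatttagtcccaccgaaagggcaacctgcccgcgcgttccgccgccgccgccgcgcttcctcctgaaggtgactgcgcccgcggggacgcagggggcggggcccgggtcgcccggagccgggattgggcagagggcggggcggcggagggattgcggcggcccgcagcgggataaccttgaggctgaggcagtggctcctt

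CA9, a membrane carbonic anhydrase that handles the acid made by glycolysis, had 1 ACGTG core in this window with 13 bases between it and the start. ANGPTL4, a secreted inhibitor of lipoprotein lipase, had 1 core with 229 bases between it and the start. The liver-type phosphofructokinase gene PFKL had no ACGTG and 1 GCGTG, and the pyruvate kinase gene PKM had neither. Of the 36 genes, 32 matched the RefSeq table, with 62 windows among them. ACGTG, searched on both strands, stood in 24 of the 62 windows (38.7%), against 18.5% of all 35116 windows. Among protein-coding windows with at least 60% GC, whose median of 68.8% GC is close to the members' 68.4%, the share was 22.4%. Counted by gene, 21 of 32 members (65.6%) had it in some window, against 25.3% of 15843 protein-coding genes, and among genes with a single window the counts were 11 of 19 members (57.9%) against 20.8%. GCGTG shares its last 4 letters with ACGTG, so no match is counted under both, and it was in 33.9% of member windows and 32.2% of all windows. A match describes letters and does not show that a factor binds there. The members were listed as hypoxia and glycolysis genes, so these shares describe the chosen list and are not a result of the libraries.

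Across the 4 libraries, 33 of the 36 members were lowest in Control, and 28 were highest in Drug. The 3 exceptions at the low end were EGLN1, the kinase gene PDK1 and MXI1, an antagonist of MYC. Among all 15530 genes with a mean of at least 0.5 CPM, which the 36 members all reached, 52.2% were lowest in Control and 58.4% were highest in Drug. The order depended partly on the scaling. With trimmed-mean (TMM) scaling, which sets the bulk of genes level between libraries, 30 members were lowest in Control, against 38.5% of all genes, whereas 9 were highest in Drug, against 20.1%. Within cells of 6500 to 15000 UMIs, 25 members were lowest in Control, against 43.0% of all genes, and 20 were highest in Drug, against 46.5%. That range held 2533 of 6990 Drug_Radiation, 1023 of 3802 Drug, 770 of 2425 Radiation and 173 of 3183 Control cells. It lay below the median depth of the libraries with QTP and above that of the libraries without. It thus set shallower cells of the former beside deeper cells of the latter.

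Summed over the 36 genes, the level was 15798 CPM in Drug_Radiation, 16516 in Drug, 14886 in Radiation and 11200 in Control. These sums are on the CPM scale. TMM scaling divides the levels by 1.03, 1.17, 0.939 and 0.886 in the same order, so it lowers Drug and raises Control. GAPDH, the glyceraldehyde phosphate dehydrogenase often used as a reference transcript, made up 36.5%, 32.5%, 36.7% and 42.2% of the sums. Without it the sums were 10033, 11140, 9425 and 6471 CPM, so Control stood apart from the other libraries by more once GAPDH was set aside. GAPDH itself was at 5765, 5376, 5460 and 4730 CPM, the narrowest relative range among the 16 glycolytic enzymes on the CPM scale. With TMM scaling it was at 5594, 4605, 5817 and 5340, lowest in Drug.

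In the order of the pathway, glucose enters the cell through SLC2A1, which had 142 CPM in Drug_Radiation, 147 in Drug, 120 in Radiation and 62.1 in Control. The hexokinases then trap it as glucose 6-phosphate, and HK1 had 62.0, 66.6, 53.0 and 27.4 CPM and HK2 32.0, 31.0, 26.1 and 17.9 CPM in the same libraries. At the phosphofructokinase step, which commits the sugar to glycolysis, PFKP had 338, 332, 212 and 110 CPM, PFKM 70.1, 75.3, 60.4 and 36.5 CPM, and PFKL 61.1, 68.0, 63.1 and 26.7 CPM. Control was lowest for each of these entry genes, by more than the counting intervals. PFKFB4, which makes an activator of phosphofructokinase, had 24.5, 32.2, 20.2 and 14.3 CPM.

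In the lower part of the pathway, aldolase ALDOA had 911, 1094, 1004 and 679 CPM in Drug_Radiation, Drug, Radiation and Control, and the triose phosphate isomerase TPI1 had 1250, 1332, 1089 and 799 CPM. PGK1, the first step that yields ATP, had 1127, 1221, 1066 and 819 CPM, and PGAM1 had 381, 493, 353 and 248 CPM. The enolases had 1600, 1685, 1496 and 1047 CPM for ENO1 and 90.6, 101, 73.9 and 39.1 CPM for ENO2. PKM had 1074, 1112, 950 and 468 CPM, so its Control level stood farther from the others than those of ALDOA, TPI1, PGK1 or ENO1. LDHA had 1242, 1396, 1052 and 902 CPM, and the lactate exporter SLC16A3 had 174, 149, 106 and 86.5 CPM.

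**Figure D1:**
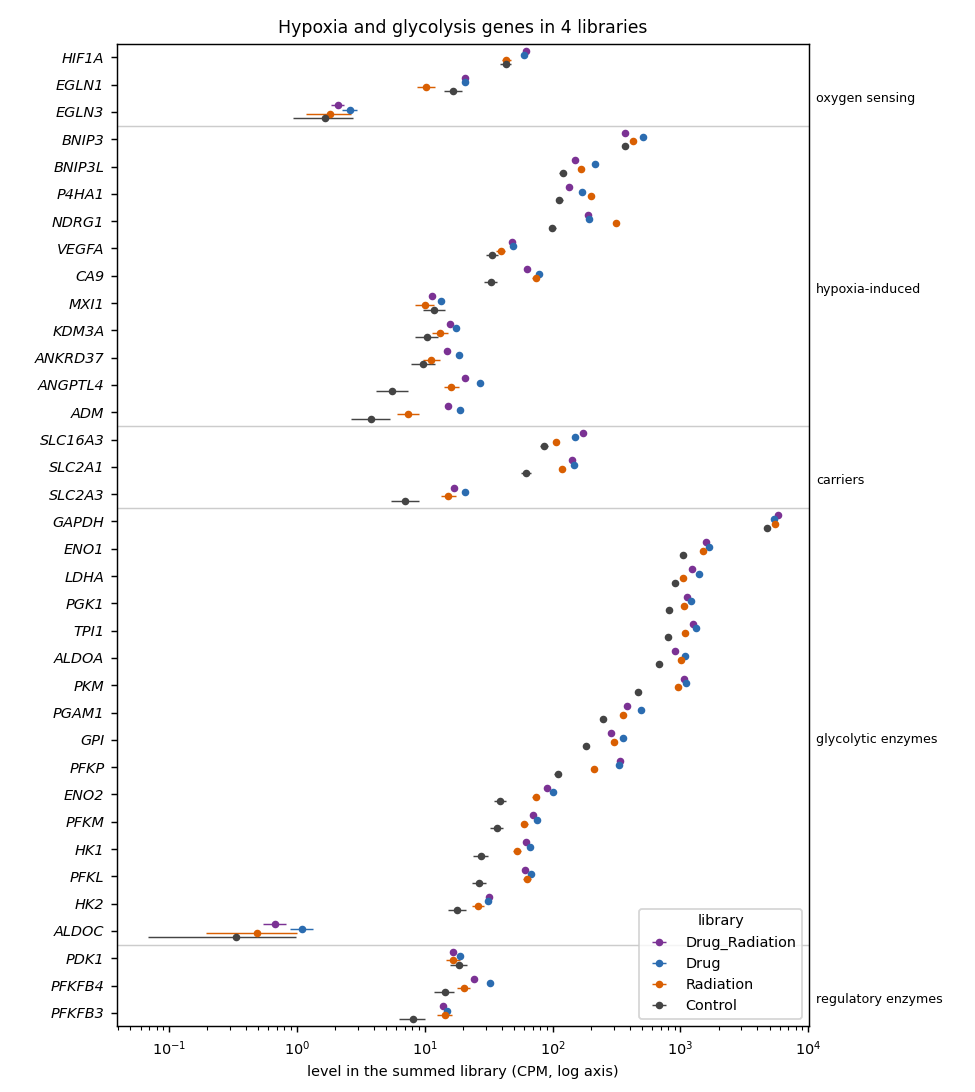
Level of each of the 36 genes in CPM of nuclear-encoded UMIs (log axis), with 1 point per library in the order Drug_Radiation, Drug, Radiation, Control and genes arranged by role; bars are 95% Poisson intervals and cover counting error only. Control is the lowest point for 33 genes, and NDRG1 and P4HA1 are highest in Radiation.

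Radiation was set against Control, the comparison of 4 Gy with no irradiation in the absence of QTP. NDRG1, a stress-responsive gene widely used as a hypoxia marker, had the largest ratio among the members of at least 20 CPM in either library, followed by PFKL, CA9 and PKM. These 4 of the 25 members at that level (16.0%) were at least 2-fold higher on the log2(CPM + 1) scale, against 2.18% of the 4818 genes at that level, and 0 members were 2-fold lower, against 0.872%. HK2 and PFKFB4 reached 20 CPM in Radiation but not in Control, so they entered through the higher library. With TMM scaling the all-gene counts were 73 higher and 58 lower in place of 105 and 42, and the members counted were NDRG1, CA9 and PFKL. The median log2 ratio of the 25 members was 0.52 and that of all genes 0.18, and 24 members lay above the all-gene median.

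Among the hypoxia-induced genes, NDRG1 had 313 CPM in Radiation (95% Poisson interval 304 to 323) against 99.9 CPM in Control (93.5 to 107), a log2 ratio of 1.64 with a 95% counting interval of 1.55 to 1.75. Here and below, the interval of a ratio is for CPM with nothing added. At low CPM it is therefore not centred on the printed log2 ratio of CPM + 1. CA9 had 74.1 CPM in Radiation against 32.7 CPM in Control, with a log2 ratio of 1.15 (0.99 to 1.37). P4HA1, a collagen prolyl hydroxylase, had 200 CPM in Radiation against 113 CPM in Control, and a log2 ratio of 0.81 (0.71 to 0.92). These genes were separated from Control by much more than the counting error of either library. The mitophagy receptors differed less, with BNIP3 at 424 CPM in Radiation against 370 CPM in Control and BNIP3L at 168 against 120 CPM. VEGFA, the main growth factor for blood vessels, had 39.4 CPM in Radiation against 33.6 CPM in Control, a log2 ratio of 0.22 (0.02 to 0.43), close to the all-gene median.

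The low members were ANGPTL4, with 16.2 CPM in Radiation against 5.59 CPM in Control, and ADM, the vasodilator peptide adrenomedullin, with 7.47 against 3.80 CPM. Neither reached 20 CPM in these libraries, so they stand outside the counts, and the Control values rest on 50 and 34 UMIs. KDM3A, a histone demethylase, was at 13.3 CPM in Radiation and 10.4 in Control, ANKRD37 at 11.3 and 9.72, and MXI1 at 10.1 and 11.9. The log2 intervals of KDM3A, ANKRD37 and MXI1 included 0, and those of ANGPTL4 (1.09 to 2.01) and ADM (0.41 to 1.58) did not.

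The oxygen-sensing genes did not follow. HIF1A had 43.4 CPM in Radiation against 43.0 CPM in Control, a log2 ratio of 0.01 (-0.17 to 0.20; -0.07 with TMM scaling), and was the single measured member below the all-gene median. EGLN1, the main prolyl hydroxylase acting on HIF1A, had 10.3 CPM in Radiation against 16.7 CPM in Control, with 148 and 149 UMIs behind these values. EGLN3, a related hydroxylase, was low, at 1.81 CPM in Radiation and 1.68 in Control.

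Among the enzymes, all 15 measured ones lay above the all-gene median. The largest ratios belonged to PFKL, with 63.1 CPM in Radiation against 26.7 CPM in Control and a log2 ratio of 1.21 (1.03 to 1.45), and PKM, which makes pyruvate in the last step of glycolysis, with 950 against 468 CPM and 1.02 (0.97 to 1.07). The log2 ratio of PKM was 0.94 with TMM scaling and 0.64 in cells of 6500 to 15000 UMIs. Next came the phosphofructokinase PFKP at 0.94 (0.84 to 1.05), the hexokinase HK1 at 0.93 (0.74 to 1.17) and the enolase ENO2 at 0.90 (0.74 to 1.10). At the low end were LDHA, which turns pyruvate into lactate, at 0.22 (0.18 to 0.26), and GAPDH at 0.21 (0.19 to 0.22). Both were close to the all-gene median of 0.18. The 8 others lay between 0.38 for PGK1 and 0.73 for GPI, the isomerase of the second step.

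The carriers also differed among themselves. SLC2A1, the GLUT1 glucose importer, had 120 CPM in Radiation against 62.1 CPM in Control, a log2 ratio of 0.93 (0.80 to 1.08). SLC2A3, the GLUT3 importer, had 15.4 CPM in Radiation against 7.04 CPM in Control, below the level needed for the counts. The lactate exporter SLC16A3 had 106 against 86.5 CPM, a log2 ratio of 0.29 (0.17 to 0.42). Of the regulatory enzymes, PFKFB4 had 20.2 CPM in Radiation against 14.3 in Control, PFKFB3 14.3 against 8.05, and PDK1, which holds pyruvate back from the mitochondria, 16.8 against 18.6.

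**Figure D2:**
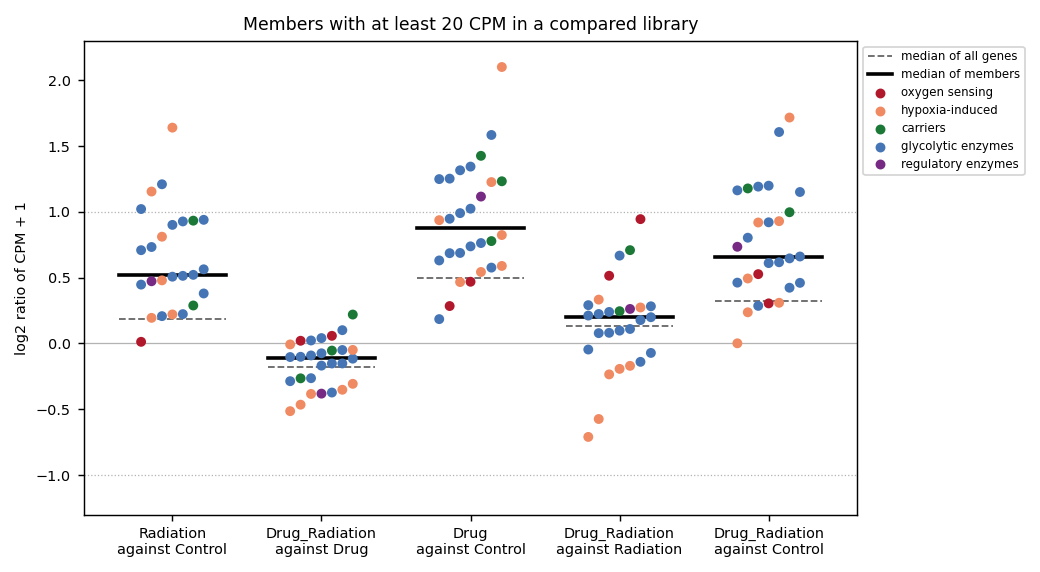
Log2 ratio of CPM + 1 for the members of at least 20 CPM in either library, in each of the 5 comparisons; points are members coloured by role, dashed lines are medians of all genes at that level, solid black lines are medians of the members and dotted lines mark 2-fold. In Radiation against Control 24 of 25 members lie above the all-gene median, led by NDRG1 at 1.64, and in Drug_Radiation against Drug the members lie between -0.51 and 0.22.

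Depth moved with these ratios. Cells were divided within each library into 3 equal groups by total UMIs, and the summed level of the 36 genes in the shallow, middle and deep cells was 16130, 16110 and 15537 CPM in Drug_Radiation and 16338, 16986 and 16322 CPM in Drug. It was 15826, 15273 and 14367 CPM in Radiation and 8997, 10823 and 12003 CPM in Control. The sum thus increased from shallow to deep cells in Control and not in the other 3 libraries. PKM had 871, 928 and 987 CPM from shallow to deep cells in Radiation, against 243, 384 and 570 CPM in Control. CA9 had 17.3, 31.0 and 37.9 CPM from shallow to deep Control cells, and BNIP3 had 368, 384 and 364. The median log2 ratio of deep over shallow Control cells was 0.62 for the 23 members of at least 20 CPM and 0.31 for the 4272 genes of that level; 2 of the members, against 5.43% of the genes, were at least 2-fold higher in the deep cells. The part of depth in the comparison of libraries was not tested.

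**Figure D3:**
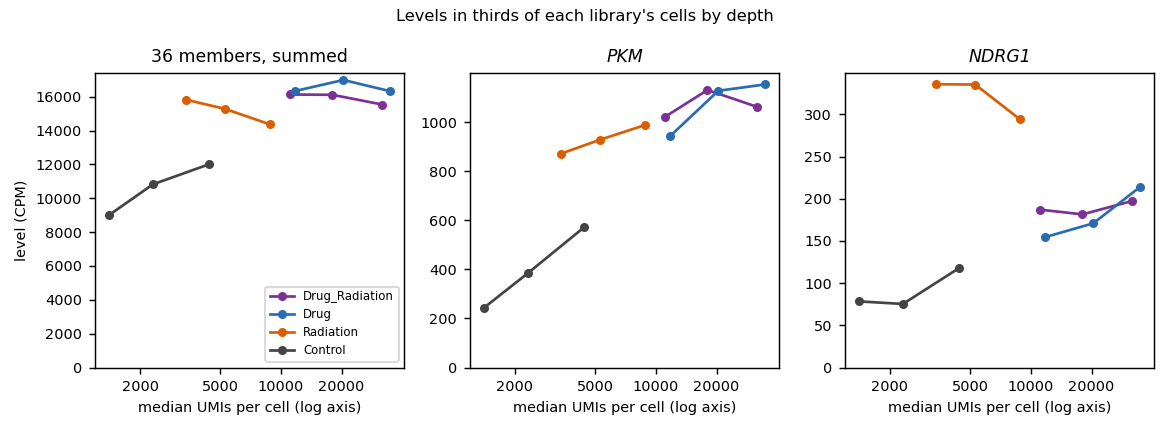
Level in CPM of the 36 genes summed, of PKM and of NDRG1 against the median UMIs per cell (log axis) of the shallow, middle and deep cells of each library. The summed level lies between 14367 and 16986 CPM in Drug_Radiation, Drug and Radiation, and is 8997, 10823 and 12003 CPM in Control.

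Taking cells of like depth from both libraries kept the sign for most members. The range of 6500 to 15000 UMIs lay above the median depth of both libraries and held 173 of 3183 Control cells. In cells of 6500 to 15000 UMIs, with 770 Radiation cells (median 8566 UMIs) and 173 Control cells (median 7775), the log2 ratio of Radiation against Control was 0.81 for NDRG1, 0.69 for CA9, 0.66 for PFKL and 0.64 for PKM. There 0 of 24 members were 2-fold higher, against 0.844% of 5096 genes, and 21 of 24 lay above the all-gene median. Of these 24, HIF1A at -0.37, VEGFA at -0.27 and SLC16A3 at -0.04 were below 0. PFKFB4, at -0.05, was under 20 CPM in both libraries there and is not among the 24. In cells of 3000 to 6000 UMIs, a range chosen after the data were seen, with 1150 Radiation cells (median 4516.5) and 864 Control cells (median 3986.5), the log2 ratio was 1.85 for NDRG1, 1.17 for PFKL, 1.14 for CA9 and 0.76 for PKM. In that range 24 of 25 members lay above the all-gene median and 3 were at least 2-fold higher, against 0.996% of 4818 genes.

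**Figure D4:**
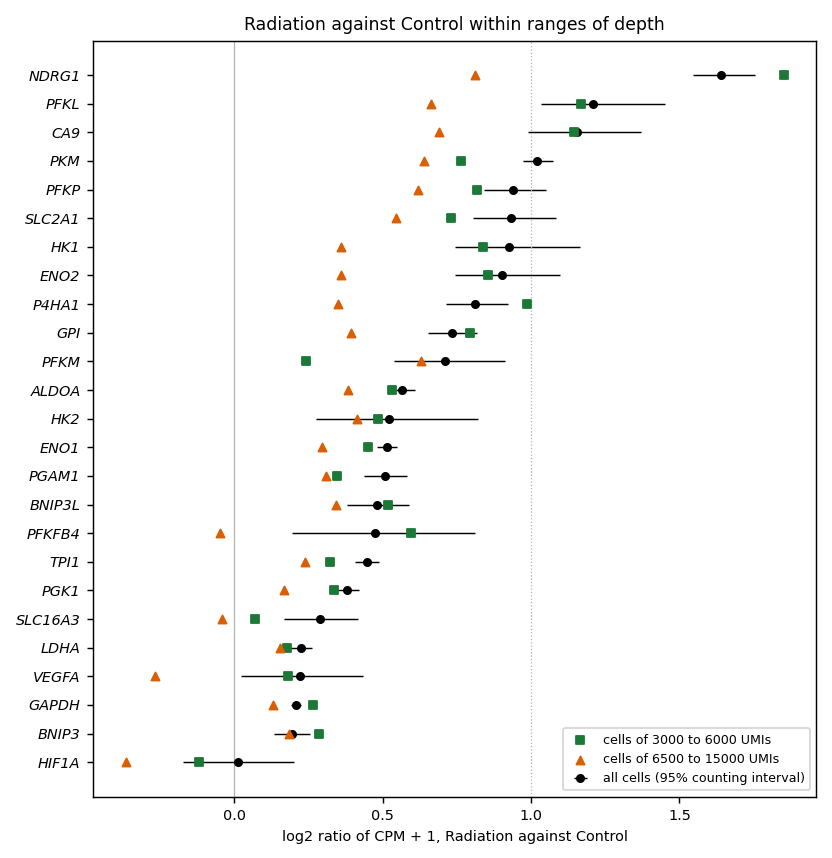
Log2 ratio of Radiation against Control for the 25 members of at least 20 CPM, in all cells (circles, with 95% counting intervals), in cells of 3000 to 6000 UMIs (squares) and in cells of 6500 to 15000 UMIs (triangles). NDRG1 is at 1.64, 1.85 and 0.81, and HIF1A is at 0.01 in all cells and at -0.37 in the deeper range.

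Drug_Radiation against Drug compared 4 Gy with no irradiation in cells that all had QTP, at median depths of 18024.5 and 20405 UMIs. The members differed little. Of 28 members at 20 CPM, 0 were at least 2-fold higher, against 0.269% of 5570 genes, and 0 were 2-fold lower, against 0.126%. With TMM scaling the all-gene counts were 26 higher and 0 lower in place of 15 and 7, and the members' counts were again 0. The members' median log2 ratio was -0.11, that of all genes -0.18, and 18 of 28 members lay above the all-gene median.

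NDRG1 had 191 CPM in Drug_Radiation against 192 CPM in Drug, at -0.01 (-0.04 to 0.02) on the log2 scale. The carriers and enzymes nearest the top were the lactate exporter SLC16A3, with 174 CPM in Drug_Radiation against 149 CPM in Drug and a log2 ratio of 0.22 (0.19 to 0.25), and GAPDH, with 5765 against 5376 CPM and 0.10 (0.10 to 0.11). Both lay above the all-gene median under TMM scaling as well, at 0.40 for SLC16A3 and 0.28 for GAPDH. NDRG1 at 0.17 and PKM at 0.13 were above 0 with TMM scaling, so the sign of these small ratios followed the scaling. Of the measured hypoxia-induced genes, only NDRG1 and VEGFA, the latter at -0.05, lay above the all-gene median. ANGPTL4, BNIP3 and BNIP3L were lowest of all measured members. ANGPTL4 had 20.7 CPM in Drug_Radiation against 27.3 CPM in Drug, at -0.38 (-0.48 to -0.32). It and the 4 genes given next were below 0 with TMM scaling too. BNIP3L had 149 CPM in Drug_Radiation against 214 CPM in Drug, with a log2 ratio of -0.51 (-0.55 to -0.49), and BNIP3 had 370 against 512 CPM, with -0.47 (-0.48 to -0.45).

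P4HA1 had 134 CPM in Drug_Radiation against 171 CPM in Drug, at -0.35 (-0.39 to -0.32), and CA9 had 62.8 against 77.9 CPM, at -0.31 (-0.36 to -0.27). The median of the 7 measured hypoxia-induced members was -0.35, and 2 of them lay above the all-gene median. The 15 measured glycolytic enzymes had a median of -0.10, and 12 lay above it. The regulatory enzyme PFKFB4 was at -0.38 (-0.47 to -0.32). PGAM1, a phosphoglycerate mutase, was the lowest of the 15 glycolytic enzymes, with 381 CPM in Drug_Radiation against 493 CPM in Drug and a log2 ratio of -0.37 (-0.39 to -0.36).

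Drug was set against Control, the comparison of QTP with vehicle in cells that were not irradiated. The median cell had 20405 UMIs in Drug against 2318 in Control, and the median log2 ratio of all genes was 0.50; the part of depth in the result was not tested. On the CPM scale 11 of 28 members (39.3%) were at least 2-fold higher, against 8.60% of 5546 genes, and 0 were 2-fold lower, against 2.34%. EGLN1, SLC2A3, ANGPTL4, HK2 and PFKFB4 reached 20 CPM in Drug but not in Control. With TMM scaling the members at least 2-fold higher were ANGPTL4 and PFKP, and the all-gene counts turned to 63 higher and 179 lower in place of 477 and 130. In cells of 6500 to 15000 UMIs 1 of 29 members (3.45%) was at least 2-fold higher, against 8.08% of 5807 genes. The members' share was not above that of all genes there, whereas 25 of 29 lay above the all-gene median. Median depth still differed within that range, at 10833 UMIs in Drug and 7775 in Control. The range took Drug cells below the median depth of their library and Control cells above the median depth of theirs. The members' median was 0.88, which is 0.38 above that of all genes on the CPM scale and 0.33 above it with TMM scaling.

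ANGPTL4 had 27.3 CPM in Drug against 5.59 CPM in Control, at 2.10 (1.88 to 2.72) on the log2 scale, which was 1.74 with TMM scaling and 1.50 in cells of 6500 to 15000 UMIs. PFKP, the platelet-type phosphofructokinase, had 332 CPM in Drug against 110 CPM in Control, at 1.58 (1.50 to 1.69) on the log2 scale, with 1.19 under TMM scaling and 0.98 in the same cells. SLC2A3 had 20.6 CPM in Drug against 7.04 CPM in Control, with 1.43 (1.19 to 1.93) as the log2 ratio. With TMM scaling and in those cells, as over all cells, these 3 had the largest values among the 28 members.

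Also above 2-fold on the CPM scale were ENO2 at a log2 ratio of 1.34, PFKL at 1.32, HK1 and PKM at 1.25, SLC2A1 and CA9 at 1.23, PFKFB4 at 1.12 and PFKM at 1.02. In cells of 6500 to 15000 UMIs, of which Drug had 1023 and Control 173, PFKL was at 0.15, HK1 at 0.40 and PKM at 0.51. ADM, at 19.0 CPM in Drug against 3.80 CPM in Control, had a log2 ratio of 2.06 (1.84 to 2.86) but was just under 20 CPM. NDRG1 was at 0.94 over all cells, 0.54 with TMM scaling and -0.16 in cells of 6500 to 15000 UMIs. GAPDH was lowest at 0.18 and changed sign to -0.21 with TMM scaling, and HIF1A was at 0.47 against 0.08 with TMM scaling. EGLN1 was at 0.28, and at -0.09 with TMM scaling. The direction of NDRG1, GAPDH and EGLN1 in this comparison thus depended on the setting.

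Drug_Radiation against Radiation compared QTP with vehicle in irradiated cells. Here 0 of 27 members were at least 2-fold higher, against 1.15% of 5239 genes, and 0 were 2-fold lower, against 1.60%. EGLN1 and ANGPTL4 reached 20 CPM in Drug_Radiation but not in Radiation. The median cell had 18024.5 UMIs in Drug_Radiation against 5299 in Radiation. With TMM scaling the all-gene counts were 38 higher and 93 lower in place of 60 and 84. The median of the members was 0.20 and that of all genes 0.13, and 15 of 27 lay above the all-gene median.

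EGLN1 was highest, with 20.8 CPM in Drug_Radiation against 10.3 CPM in Radiation and a log2 ratio of 0.94 (0.77 to 1.26). SLC16A3 followed with 174 CPM in Drug_Radiation against 106 CPM in Radiation at 0.71 (0.64 to 0.79), then PFKP with 338 against 212 CPM at 0.67 (0.62 to 0.72) and HIF1A with 62.4 against 43.4 CPM at 0.51 (0.41 to 0.64). NDRG1 was lowest, with 191 CPM in Drug_Radiation against 313 CPM in Radiation and -0.71 (-0.76 to -0.67). P4HA1 came next, with 134 against 200 CPM and -0.57 (-0.63 to -0.52). All 6 values kept their sign with TMM scaling and in cells of 6500 to 15000 UMIs, where NDRG1 was at -0.64, P4HA1 at -0.42, EGLN1 at 0.80, SLC16A3 at 0.78, PFKP at 0.54 and HIF1A at 0.44.

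Drug_Radiation against Control compared both treatments together with neither. On the CPM scale 7 of 27 members (25.9%) were at least 2-fold higher, against 5.36% of 5243 genes, and 0 were 2-fold lower, against 2.42%. EGLN1, ANGPTL4, HK2 and PFKFB4 reached 20 CPM in Drug_Radiation but not in Control, and the median cell had 18024.5 against 2318 UMIs. With TMM scaling the members counted were ANGPTL4 and PFKP, and the all-gene counts were 105 higher and 154 lower in place of 281 and 127. ANGPTL4 had 20.7 CPM in Drug_Radiation against 5.59 CPM in Control, a log2 ratio of 1.72 (1.48 to 2.32), and PFKP had 338 against 110 CPM, a log2 ratio of 1.61 (1.52 to 1.71). PKM was at 1.20, ENO2 at 1.19, SLC2A1 at 1.18, PFKL at 1.16 and HK1 at 1.15. In cells of 6500 to 15000 UMIs 1 of 26 members (3.85%), PFKP at 1.16, was at least 2-fold higher, against 4.09% of 5458 genes. Here too the members' share was not above that of all genes, whereas 23 of 26 lay above the all-gene median. Median depth within that range was 11462 UMIs in Drug_Radiation and 7775 in Control. These Drug_Radiation cells were below the median depth of their library and the Control cells above the median depth of theirs. ANGPTL4 was at 1.17 but under 20 CPM in both libraries there, and PKM was at 0.69. BNIP3 was at 0.00 (-0.05 to 0.05) and at -0.22 with TMM scaling, with 370 CPM in both libraries, whereas Drug had 512 and Radiation 424 CPM.

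Where several genes encode the same step, the share of UMIs falling on each was compared between libraries, which needs no scaling to the library total. PFKP took 72.0% of phosphofructokinase UMIs in Drug_Radiation and 69.9% in Drug, against 63.2% in Radiation and 63.5% in Control, so the libraries with QTP stood apart from those without. The muscle form PFKM took 14.95%, 15.8%, 18.0% and 21.1%, and the liver form PFKL 13.0%, 14.3%, 18.8% and 15.4% in the same order. ENO2 took 5.36% of enolase UMIs in Drug_Radiation, 5.64% in Drug, 4.71% in Radiation and 3.60% in Control (exact binomial interval 3.24% to 3.99%). HK2 took 34.0% of hexokinase UMIs in Drug_Radiation, 31.8% in Drug, 33.0% in Radiation and 39.5% in Control, where the interval of 34.7% to 44.5% was wide. BNIP3L took 28.7%, 29.5%, 28.4% and 24.5% of the UMIs of the BNIP3 pair, with an interval of 23.3% to 25.8% in Control. ALDOC stayed under 0.101% of aldolase UMIs in each library, with 3 UMIs in Control.

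Other genes of the pathway, taken from lists of textbook members, were set beside these. Of 33 other hypoxia-induced genes, 21 reached 20 CPM in each comparison. At least 2-fold higher were 3 in Radiation than in Control, against 2.18% of all genes, 8 in Drug than in Control, against 8.60%, and 6 in Drug_Radiation than in Control, against 5.36%. In Drug_Radiation against Drug and in Drug_Radiation against Radiation the count was 0, against 0.269% and 1.15%. With TMM scaling, a recount chosen after the data were seen, the counts in the first 3 comparisons were 2, 1 and 2, against 1.43%, 1.22% and 1.99% of all genes. In cells of 6500 to 15000 UMIs, likewise added later, they were 1, 2 and 1, against 0.844%, 8.08% and 4.09%. STC2, the secreted glycoprotein stanniocalcin-2, had 233.5 CPM in Drug_Radiation, 220 in Drug, 213 in Radiation and 85.2 in Control. P4HA2, a paralogue of P4HA1, had 74.5, 76.0, 65.0 and 29.8 CPM, and the transcription factor BHLHE40 had 22.5, 28.4, 21.0 and 9.84 CPM in that order. FAM162A ran differently, with 262, 353, 295 and 341 CPM. The other oxygen-sensing genes and subunits of hypoxia-inducible factors gave 0 genes past 2-fold in any comparison over all cells, with 5 measured in Radiation against Control and 7 in the others, and 1 in Drug_Radiation against Radiation in cells of 6500 to 15000 UMIs. Their median lay 0.37 below that of all genes in Radiation against Control, 0.29 below it in Drug against Control and 0.23 below it in Drug_Radiation against Control. It lay 0.09 above that of all genes in Drug_Radiation against Drug and in Drug_Radiation against Radiation. In cells of 6500 to 15000 UMIs it was within 0.01 of that of all genes in Drug against Control and in Drug_Radiation against Control.

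Of 31 other enzymes and carriers of carbohydrate metabolism, 14 were measured in Drug against Control. Those at least 2-fold higher included PGD at a log2 ratio of 1.59, TKT at 1.35 and GYS1 at 1.21. PGD and TKT belong to the pentose phosphate pathway, a branch of glycolysis, and GYS1 makes glycogen. None of the 13 measured in Radiation against Control passed 2-fold, and PGD was there at 0.86, TKT at 0.98 and GYS1 at 0.78. Of 19 genes that decide the fate of pyruvate and lactate, 11 were measured in Drug_Radiation against Drug and in Drug against Control. In the other comparisons 8 were measured. The count past 2-fold was 0 in all 5 comparisons. Of all genes, 2.18% were at least 2-fold higher in Radiation against Control, 0.269% in Drug_Radiation against Drug and 8.60% in Drug against Control. The share was 1.15% in Drug_Radiation against Radiation and 5.36% in Drug_Radiation against Control. With so few genes measured, a count of 0 does not set them apart.

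Within libraries, members were also followed from cell to cell, after each cell had been thinned to 5000 UMIs. This used 6990 Drug_Radiation, 3802 Drug, 1266 Radiation and 361 Control cells and left out 0, 0, 1159 and 2822 shallower ones, so the Control cells are the deepest of that library. Over the 23 members of at least 20 CPM in all libraries, the median correlation between pairs of members was 0.056, 0.076, 0.060 and 0.089, against 0.0043, 0.0064, 0.0001 and 0.0044 between a member and another gene. These correlations are across cells of 1 library each, are low in sparse counts and are given as a description. The other genes were all those of at least 20 CPM in the thinned cells and were not matched to the members in level. The highest correlations were between abundant enzymes, with GAPDH and the phosphoglycerate kinase PGK1 at 0.367, 0.440, 0.398 and 0.432, and GAPDH and LDHA at 0.345, 0.403, 0.347 and 0.458. NDRG1 and P4HA1 gave 0.170, 0.214, 0.295 and 0.309. The median correlation of NDRG1 with the 14 enzymes was 0.106, 0.150, 0.153 and 0.135, whereas that of the enzyme gene PFKM with the other 13 was 0.002, 0.012, -0.026 and 0.032. HIF1A was below 0 with 7, 8, 10 and 12 of the 14 enzymes in the same order, but its medians were near 0, at -0.012, -0.010, -0.019 and -0.032. VEGFA was below 0 with 8, 8, 7 and 4 of them. Signs of values so near 0 do not show that HIF1A ran against the enzymes.

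The variance of the thinned counts of NDRG1 over their mean was 1.69 in Drug_Radiation, 1.97 in Drug, 2.99 in Radiation and 1.95 in Control. The mean was also highest in Radiation, with 0.931, 0.897, 1.54 and 0.676 UMIs per cell in the same order. GAPDH had 2.54, 2.61, 2.39 and 2.10 in Drug_Radiation, Drug, Radiation and Control, and HIF1A had 1.16, 1.11, 1.16 and 0.984. Random sampling alone gives a value of 1. The means were far apart, at 28.9 UMIs per cell for GAPDH and 0.316 for HIF1A in Drug_Radiation. At a like relative spread this measure grows with the mean, so it does not rank these genes by their spread between cells.

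**Figure D5:**
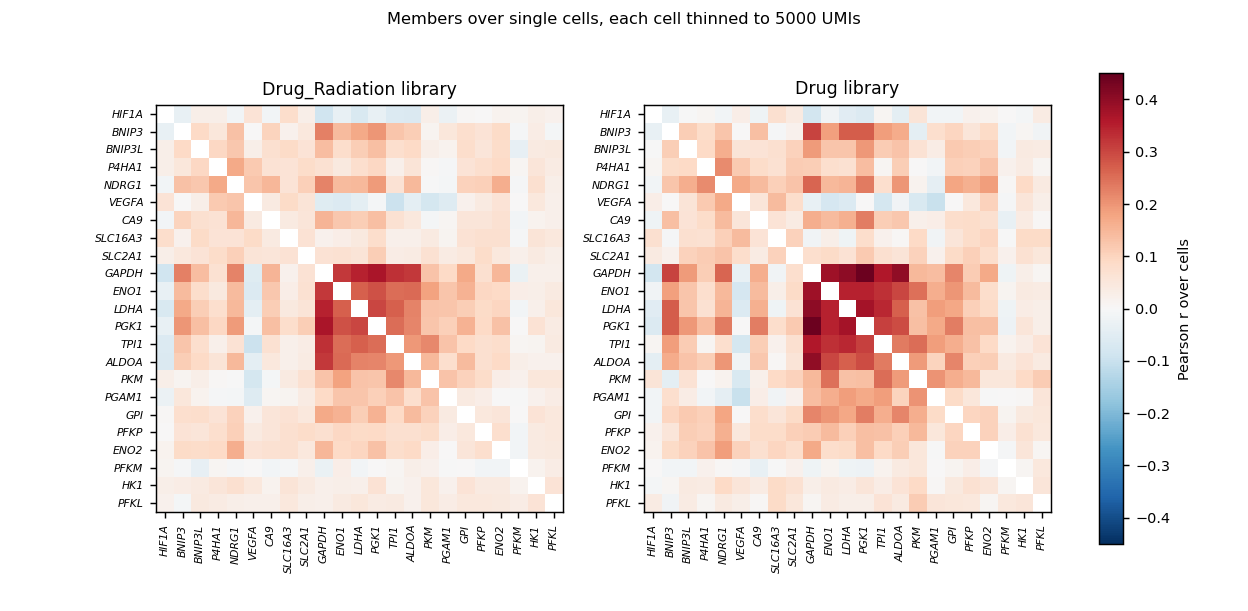
Pearson correlation (colour scale) across cells thinned to 5000 UMIs between the 23 members of at least 20 CPM in every library, in the Drug_Radiation library (left) and the Drug library (right). GAPDH and PGK1 reach 0.367 in Drug_Radiation and 0.440 in Drug. HIF1A lies near 0, with medians over the 14 enzymes of -0.012 and -0.010 and values below 0 with 7 and 8 of them.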

How the data were processed

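RNA of single cells was measured in 4 libraries, 1 per group, so spread between cultures is unknown and no test was run. The authors deposited whole-number UMI counts, unnormalized, for each barcode. The submitters' processing notes list Seurat 4.3.3 and the build hg38 without saying what each did. How reads were aligned, counted by strand and annotated, and how barcodes were called, is not given in the sources used here. Per the labels' protocols the kit was PIPseq V T2 3', while another label names 10x Genomics. In 3'-tagged data a UMI is counted near the end of a transcript, so splice forms such as those of PKM were not told apart.

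Cells with at least 500 UMIs, at least 300 genes and under 20% mitochondrial UMIs were kept, and counts were summed per library. No doublets were removed. CPM were taken over nuclear-encoded UMIs. Genes of at least 20 CPM in either library were compared as log2(CPM + 1), and a difference of 2-fold was counted. Ratios carry exact conditional binomial, levels exact Poisson and shares exact Clopper-Pearson 95% intervals, which cover counting error only. The intervals of ratios are for CPM with nothing added, whereas the log2 ratios are of CPM + 1, and the 2 differ most for genes of low CPM. The members named in full were those reaching 2-fold in a comparison, the highest and lowest of each comparison, HIF1A and the isozyme families, and the other members are given more briefly. Members and lists were chosen with earlier results of these data known, and so was the range of 6500 to 15000 UMIs. Alternatives were TMM (edgeR 4.0.16) and median-of-ratios (DESeq2 1.42.0) scaling, used for scaling factors alone, other cell filters, depth ranges, equal weight per cell, another added CPM and another minimum CPM. The calculation was tested on simulated data. Positions and gene types came from GENCODE 29, and Python 3.11.15, numpy 2.4.6, scipy 1.17.1 and R 4.3.3 were used.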

Additional observations from a re-analysis of the deposited data

Results flagged for a closer look

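Among the 25 members of at least 20 CPM in both comparisons, for 7 (28.0%) the irradiated library lay below the all-gene median of its comparison with QTP (Drug_Radiation against Drug) and above it without QTP (Radiation against Control), with counting intervals on opposite sides. Of 4715 genes at that level, 11.8% met the same rule, and 15.4% of genes and 0 members met it in the opposite direction. ANGPTL4 (-0.38 with QTP and 1.38 without), ADM (-0.30 and 0.82) and SLC2A3 (-0.27 and 1.02) also had intervals on opposite sides but were under 20 CPM in Radiation and Control. With 1 library per group this difference was not tested. The log2 ratio with QTP minus that without was -1.46 for CA9 (-0.31 with QTP and 1.15 without), -1.16 for P4HA1 (-0.35 and 0.81), -1.02 for GPI (-0.29 and 0.73) and -0.99 for BNIP3L (-0.51 and 0.48). It was -0.88 for PGAM1 (-0.37 and 0.51), -0.85 for PFKFB4 (-0.38 and 0.47) and -0.83 for ALDOA (-0.26 and 0.56). These values are not relative to the all-gene medians, which were -0.18 with QTP and 0.18 without. Relative to the first, the 7 members lay between -0.33 for BNIP3L and -0.08 for ALDOA. Large differences were not confined to the 7. NDRG1 was at -1.65 and PFKL at -1.36, but both lay above the all-gene median with QTP. The 2 comparisons also differ in depth, since the median cell had 18024.5 UMIs in Drug_Radiation and 20405 in Drug, but 5299 in Radiation and 2318 in Control; the part of depth was not tested.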

How the results depend on the processing

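No paired analysis was possible because each group has 1 library. Of 138 counts and medians recomputed under the alternatives, 123 stayed within 1.5 times the count or within the members' typical counting error. Single members moved more: of 120 log2 ratios, 79 moved beyond their counting error with TMM scaling, 84 with median-of-ratios scaling, 42 with equal weight per cell and 78 in cells of 6500 to 15000 UMIs, none past 2-fold changing sign. For members at least 2-fold higher, TMM scaling gave 2 in Drug against Control and 2 in Drug_Radiation against Control, and median-of-ratios scaling gave 2 and 1, where ANGPTL4 stayed at 1.47 but had 19.4 CPM, under the minimum. Equal weight per cell gave 8 of 25 (32.0%, against 4.83% of genes) in Radiation against Control. In Drug_Radiation against Radiation it gave 1 of 26, EGLN1 (3.85%, against 1.28%). Adding 0.1 CPM also gave 1 in Drug_Radiation against Radiation, for which no all-gene share is given here. Cells of 6500 to 15000 UMIs gave 0 of 24 (against 0.844% of genes) in Radiation against Control and 1 of 29 (3.45%, against 8.08%) in Drug against Control. They gave 1 of 26 (3.85%, against 4.09%) in Drug_Radiation against Control. For the members' median minus that of all genes, the same cells gave 0.22 in Drug against Control and 0.14 in Drug_Radiation against Radiation, and cells of 3000 to 6000 UMIs gave 0.47 in Radiation against Control. A minimum of 5 CPM turned it to -0.0125 in Drug_Radiation against Drug and -0.0043 in Drug_Radiation against Radiation. The cause of these shifts was not tested. Depth limits Control most: ALDOC rests on 3 UMIs there, ADM on 34 and ANGPTL4 on 50.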
